A study of Mus musculus with 4 samples.

Results

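The venular blood endothelial cells described here are barcodes from 3 single-cell RNA libraries of the mouse hind limb that carried blood endothelial transcripts together with Ackr1 or Selp. A barcode was kept when it held at least 500 UMIs (unique molecular identifiers, each taken as 1 captured RNA molecule) and at least 300 genes, with at most 15% of UMIs from mitochondrial genes and at most 20% from haemoglobin genes. A kept barcode was a member when it had a UMI in at least 2 of Flt1, Ptprb, Emcn, Kdr, Esam and Vwf, a UMI in Ackr1 or Selp, and no UMI of the lymphatic genes Prox1 and Mmrn1. The members were thus chosen by measured values, the UMIs of these 10 genes in each barcode, and the levels of those genes are given only as a description. The rule found 140 members among 3435 kept barcodes, which is 4.08%. No barcode sequence was shared between libraries among the members, and the doublet caller marked none of them.

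All mice were adult and carried a Wt1 allele in which EGFP and Cre were knocked in (Wt1tm1(EGFP/cre)Wtp) together with the Ai9 allele, a tdTomato reporter that is switched on by Cre. Libraries 1 and 2 of popliteal lymphatic vessels (PLV), the collecting vessels of the hind limb, each came from 2 pooled mice, and the vessels were digested for 30 min in collagenase I, Dispase II, DNase and Liberase. The third library, called mixed here, came from 1 set of 2 mice and held PLV together with blood vessel; it was digested for 60 min in collagenase I and Dispase II. Before dissection, the footpad received 4% Evans blue to make the lymphatics visible. Each library was therefore a pool. Where kinds of barcode were compared within libraries, p-values measured how their difference varied over these pools. Where PLV and mixed members were compared, p-values measured the spread between the PLV pools.

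Post-capillary venules and small collecting veins are the vessels through which leukocytes leave the blood. Their endothelium displays selectins that slow a passing leukocyte and immunoglobulin-family ligands that hold it. Ackr1 is an atypical receptor that binds inflammatory chemokines without classical signalling and is known for marking venular endothelium, while Selp encodes P-selectin, which is stored in endothelial granules with von Willebrand factor (Vwf). Sele encodes E-selectin, the selectin that endothelium makes upon activation. In the dissected limb such vessels run beside the collecting lymphatics.

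Ackr1 and Selp chose the members, and Sele ranked first by the size of its difference among the named genes that were higher than in the other blood endothelial barcodes, and second with the stricter endothelial setting described below; all lie on mouse chromosome 1. In GRCm38, Sele spans chr1:164048234-164057677 on the plus strand, Selp spans chr1:164115264-164150026 on the plus strand, and Ackr1 spans chr1:173331886-173333750 on the minus strand. Their promoter windows, 250 bases before to 50 bases after the start in RefSeq (GRCm38.p6), are shown 5′ to 3′, Ackr1 and Selp because they chose the members and Sele because the first results turn on it. Capitals mark GGAA, the core of ETS factor sites, and GATA, each on either strand (TTCC and TATC on the other strand), where neighbouring matches may abut or overlap.
Ackr1: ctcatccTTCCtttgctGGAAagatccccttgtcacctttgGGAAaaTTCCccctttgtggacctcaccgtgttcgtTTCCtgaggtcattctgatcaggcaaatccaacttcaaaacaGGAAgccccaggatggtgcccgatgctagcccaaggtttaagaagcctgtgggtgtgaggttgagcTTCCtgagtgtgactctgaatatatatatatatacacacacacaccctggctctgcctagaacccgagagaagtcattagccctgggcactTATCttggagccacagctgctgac
Selp: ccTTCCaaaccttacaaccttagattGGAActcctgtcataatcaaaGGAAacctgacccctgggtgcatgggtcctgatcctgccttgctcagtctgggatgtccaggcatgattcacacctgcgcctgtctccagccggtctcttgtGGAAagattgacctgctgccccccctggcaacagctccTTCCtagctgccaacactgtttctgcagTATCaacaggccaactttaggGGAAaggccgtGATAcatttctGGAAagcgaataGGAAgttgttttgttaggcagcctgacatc
Sele: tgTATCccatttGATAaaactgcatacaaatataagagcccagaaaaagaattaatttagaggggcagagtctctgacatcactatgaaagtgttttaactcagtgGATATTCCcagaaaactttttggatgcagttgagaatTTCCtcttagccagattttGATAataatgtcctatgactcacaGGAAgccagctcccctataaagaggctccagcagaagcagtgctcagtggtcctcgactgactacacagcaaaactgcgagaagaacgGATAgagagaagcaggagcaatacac
The Ackr1 window is chr1:173333454-173333753, the Selp window chr1:164115014-164115313 and the Sele window chr1:164047984-164048283. The RefSeq start of Ackr1 lies inside the gene span given above, so nearly all of its window lies within that span. GGAA occurred 7 times in the Ackr1 window, 8 times in the Selp window and 3 times in the Sele window. Of 32851 RefSeq promoters of the same length, 96.0% held GGAA at least once, with a median of 3 and a 95th percentile of 7, so the Selp window lay above the 95th percentile and the Sele window at the median. GATA occurred once in the Ackr1 window, 2 times in the Selp window and 5 times in the Sele window, and 57.9% of all promoters held it. AGGTCA, a core site of COUP transcription factors, was found once each in the Ackr1 and Selp windows and not in the Sele window, against 16.3% of promoters. TATAAA was found in the Sele window only, and 13.6% of promoters held it. Both strands were searched, and a match describes letters, not a bound site.

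The label was checked against its markers. Of the 5 markers given for venular cells, Ackr1, Selp and Vwf were part of the rule, so their levels are a description. Levels are given in CPM, the UMIs of a gene per 1000000 UMIs of all the barcodes of that kind in a library, in the order PLV 1, PLV 2 and mixed. Ackr1 stood at 325, 430 and 554 CPM in the members, and 65.2%, 80.0% and 75.0% of them had an Ackr1 UMI. Selp stood at 452, 406 and 406 CPM, with a UMI in 87.0%, 80.0% and 92.9% of members. Both were present in every library; Selp was at a similar level in all 3, and Ackr1 was lowest in PLV 1 and highest in the mixed library.

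Aqp1, a water channel of endothelium and red cells, and Lepr, the leptin receptor, were not used by the rule. Aqp1 was at 3508, 3903 and 2885 CPM, with a UMI in 94.2%, 100% and 94.6% of members, against 2.15%, 3.15% and 1.41% of non-endothelial barcodes. Lepr was at 366, 358 and 162 CPM, with a UMI in 78.3%, 66.7% and 64.3% of members. Of the other blood endothelial barcodes, which lacked Ackr1 and Selp UMIs, 44.8%, 54.1% and 28.6% had an Aqp1 UMI. A Lepr UMI was seen in 13.9%, 18.9% and 4.97% of them. Among the 63, 14 and 55 members with at least 1500 UMIs, each thinned to that number, Aqp1 was still seen in 93.7%, 100% and 90.9% and Lepr in 42.9%, 28.6% and 14.5%. In the other blood endothelial barcodes thinned alike, Aqp1 was seen in 37.6%, 45.6% and 18.7% and Lepr in 4.39%, 3.51% and 0.746%. Aqp1 was thus found in nearly every member and in part of the other blood endothelial barcodes. Lepr was found in a minority of members at equal depth. These markers were proposed with results of these data known.

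UMIs of Ackr1 were also found outside the endothelial barcodes. Non-endothelial barcodes with a UMI of Pi16, a gene of adventitial fibroblasts, had an Ackr1 UMI in 86 of 213 barcodes in PLV 1 (40.4%, 95% exact binomial interval 33.7 to 47.3), in 6 of 22 in PLV 2 (27.3%, 10.7 to 50.2) and in 21 of 123 in the mixed library (17.1%, 10.9 to 24.9). Their Ackr1 level was 142, 78.7 and 25.6 CPM, below that of the members in each library. Near-empty droplets of the mixed library held Ackr1 at 11 CPM (95% exact Poisson interval 5.49 to 19.7), which overlaps the interval of the mixed-library Pi16 barcodes, 17.0 to 37.0 CPM. Overlap of intervals is no test, and these levels were not tested against each other. Droplets of the PLV libraries were not described. Other kinds of barcode had an Ackr1 UMI less often: 3.21%, 2.00% and 2.45% of those with Myh11, a smooth muscle gene, and 1.29%, 0% and 3.45% of those with Ptprc, a leukocyte gene. Selp had 0 UMIs in all of these; 0 of 213 Pi16 barcodes in PLV 1 allows a share of barcodes with a UMI of up to 1.41% (3 counts of the total). Intervals here and below cover counting error only. These barcodes were taken from those outside the endothelial groups, so none was a member. The 33, 3 and 9 barcodes with Ackr1 or Selp but only 1 endothelial gene held the fibroblast gene Dcn at 9547, 9274 and 11564 CPM and Aqp1 at 17.0, 0 and 0 CPM.

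**Figure D1:**
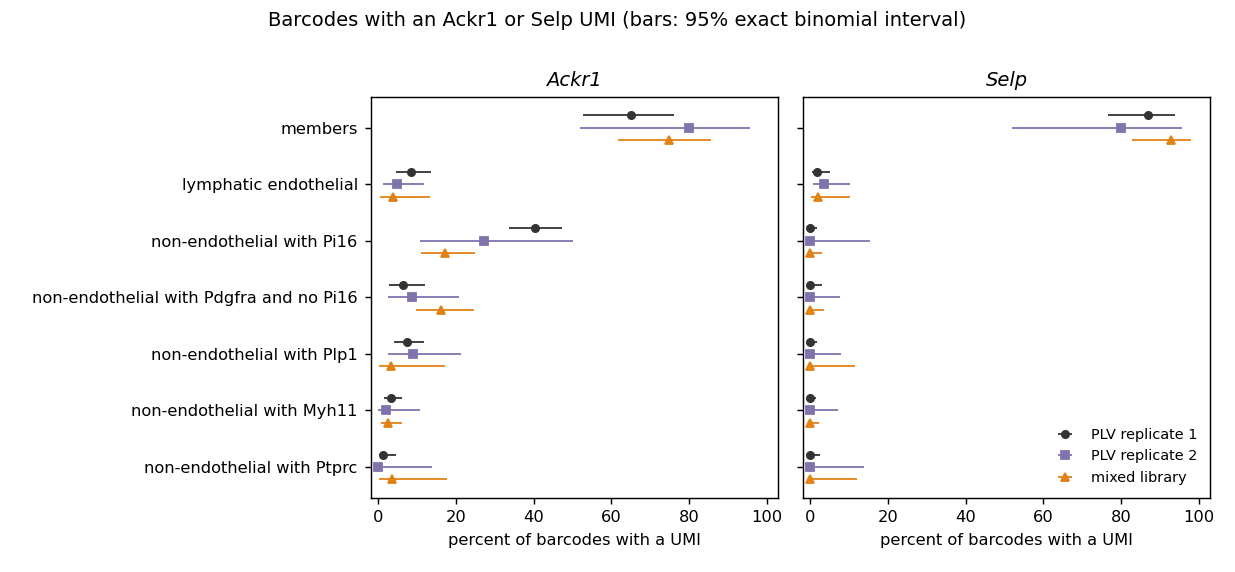
Percent of kept barcodes with at least 1 UMI of Ackr1 or Selp in the members and in 6 other kinds of barcode, in each of the 3 libraries; bars are 95% exact binomial intervals. Barcodes with Pi16 reach 40.4% for Ackr1 in PLV 1, and Selp is confined to the members and a few lymphatic barcodes among the kinds drawn; in the members both genes are part of the rule.

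Members varied in how they met the rule. Both Ackr1 and Selp were seen in 36, 9 and 38 members, Ackr1 alone in 9, 3 and 4, and Selp alone in 24, 3 and 14. A single UMI of the pair admitted 14, 2 and 7 members, while 27, 7 and 34 members held at least 5. Just inside the rule, the 14 PLV 1 members with a single such UMI had Aqp1 at 2504 CPM and Vwf at 646 CPM. Single-UMI members of the other libraries differed from these: the 2 of PLV 2 had Lepr at 0, Vwf at 191 CPM and Gpihbp1 at 1811 CPM, and the 7 of the mixed library had Lepr at 21.1 CPM, Vwf at 2597 CPM and Mgp at 2555 CPM. Just outside the rule, the 259 PLV 1 barcodes with at least 2 endothelial genes and no Ackr1 or Selp UMI had Aqp1 at 1103 CPM and Vwf at 224 CPM. Another 18, 9 and 6 barcodes met the endothelial and Ackr1 or Selp conditions but were left out for a UMI of Prox1 or Mmrn1. The median depth of members was 5252, 10739 and 9990 UMIs, above the 3831, 5762 and 7797 UMIs of the other blood endothelial barcodes; a rule that asks for a UMI admits deep barcodes more readily, so each comparison was repeated at 1500 UMIs per barcode.

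A set of members in the mixed library stood apart. The 14 mixed-library members with Selp alone had Mgp, which encodes an inhibitor of calcification, at 5131 CPM, against 186 CPM in the 38 members of that library with both genes. Cytl1, a secreted cytokine-like protein, was at 2124 against 6.35 CPM, and Ctsh, the lysosomal protease cathepsin H, was at 404 against 10.6 CPM, with a UMI in 12 of 14 against 2 of 38 barcodes. Vwf was at 3059 against 607 CPM, and Bgn, a matrix proteoglycan, at 1646 against 140 CPM. The same barcodes were low for genes that were high elsewhere among the members: Sele was at 7.48 against 118 CPM, Lepr at 67.3 against 203 CPM, Aqp1 at 1945 against 3333 CPM and the fatty acid transporter Cd36 at 194 against 1159 CPM. Their median depth, 9017 UMIs, was close to the 10644 UMIs of the others.

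The 24 Selp-alone members of PLV 1 did not show this pattern. Mgp was at 132 CPM in them and 228 CPM in the 36 PLV 1 members with both genes, Ctsh at 26.5 and 15.7 CPM, and Vwf at 741 and 795 CPM. Sele was at 106 and 130 CPM, Lepr at 298 and 413 CPM and Aqp1 at 3062 and 3777 CPM. Bgn was at 112 and 212 CPM, Cytl1 at 79.4 and 122 CPM and Cd36 at 1786 and 1314 CPM. In the genes that separated them in the mixed library, both kinds of PLV 1 member thus lay closer together. The markers Aqp1 and Lepr were found in members with both genes in every library. The few members with Ackr1 alone varied: the 4 of the mixed library had Lepr at 0 and Aqp1 at 798 CPM with the smooth muscle gene Acta2 at 1572 CPM, and the 3 of PLV 2 had the capillary genes Gpihbp1 and Cd36 at 1679 and 4728 CPM. The 14 Selp-alone members of the mixed library lacked Sele and Lepr at the level of the rest, and they are called here by their rule. The split was noticed after the values were seen and was not tested. Each comparison that rests on the mixed library was repeated with Ackr1-positive members alone, where some named genes were not tested.

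**Figure D2:**
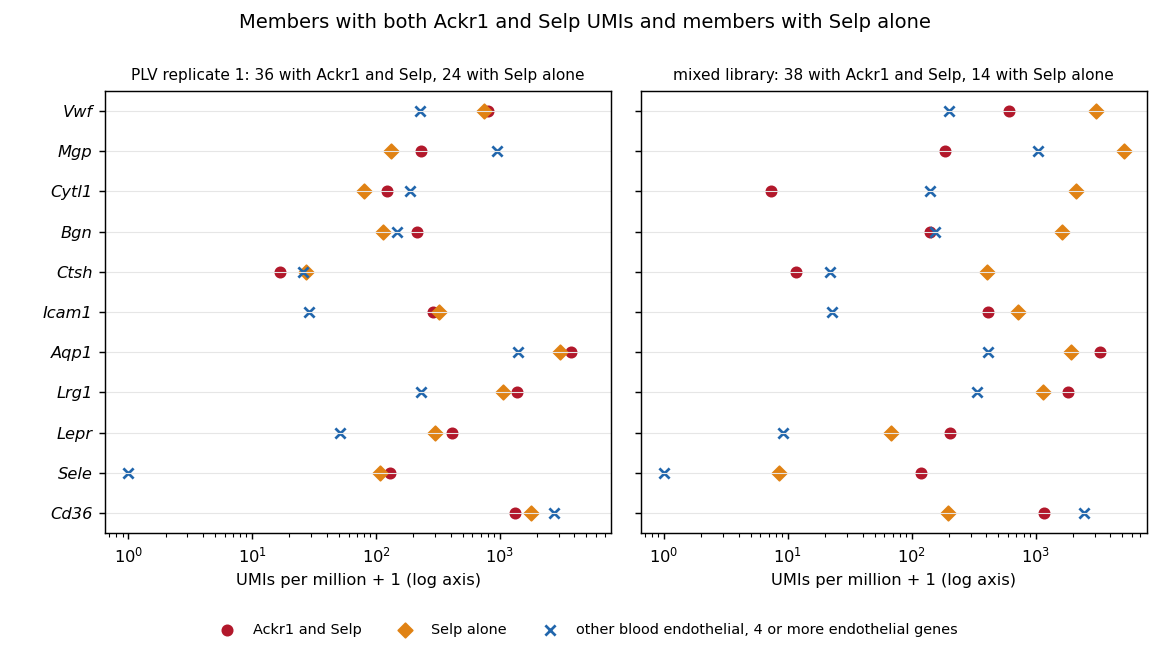
Level of each gene (CPM + 1, log axis) in members with both Ackr1 and Selp and in members with Selp alone, for PLV 1 (36 and 24 members) and the mixed library (38 and 14 members); crosses are the other blood endothelial barcodes with at least 4 endothelial genes. In the mixed library the Selp-alone members lie far above the others for Mgp, Cytl1 and Ctsh and below them for Sele, Lepr and Cd36. In PLV 1 both kinds lie closer together.

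Members made up 69 of 1919 kept barcodes in PLV 1 (3.60%, 95% exact binomial interval 2.81 to 4.53), 15 of 519 in PLV 2 (2.89%, 1.63 to 4.72) and 56 of 997 in the mixed library (5.62%, 4.27 to 7.23). The PLV libraries averaged 3.24% ± 0.499 (SD, n = 2). The mixed library lay above both, and with a single mixed library no test was made. With barcodes thinned to 1500 UMIs the PLV mean was 2.90% and the mixed share 3.51%, so the gap was smaller at equal depth. Among Ackr1-positive members alone the shares were 2.33% and 4.21%. Digestion, vessels and mice differed together between PLV and mixed libraries and cannot be told apart.

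Libraries held 9611078, 3466668 and 7814616 UMIs in kept barcodes, of which 440466, 167584 and 647884 belonged to members. PLV 2 thus rests on the fewest members and UMIs. RNA of other cell types was present: 74 of 140 members carried UMIs in at least 2 markers of 1 other type, erythroid markers not counted, against 251 of 494 other blood endothelial barcodes. The summed level of 7 smooth muscle markers was 1265, 1671 and 1783 CPM in members and 6760, 5171 and 16706 CPM in the other blood endothelial barcodes; the summed fibroblast markers were 295, 352 and 611 CPM in members and 1360, 734 and 2919 CPM in the others. The comparison group thus held more smooth muscle and fibroblast RNA than the members in every library. Other lists ran the other way in some libraries: summed erythroid markers were at 8125, 221 and 136 CPM in members and 1959, 595 and 164 CPM in the others, and summed Schwann cell markers at 543, 17.9 and 1235 CPM against 375, 471 and 78.9 CPM. Few barcodes carried these values: 1 PLV 1 member held 80.6% of the 1899 UMIs of the haemoglobin gene Hbb-bs, and in members with at least 4 endothelial genes the Schwann cell sum was 25.4, 18.2 and 6.51 CPM. Summed lymphatic markers were at 188, 113 and 29.3 CPM in members and 72.7, 83.4 and 49.1 CPM in the others, higher in members in both PLV libraries. Among them, Pdpn and Ccl21a were at 0 in all members, while Thy1 had 77 UMIs in 23 of 69 PLV 1 members. Summed macrophage markers were at 18.2, 0 and 18.5 CPM in members and 65.5, 11.1 and 98.8 CPM in the others. Of these, Ptprc, Csf1r, Adgre1, C1qa and Tyrobp were at 0 in the PLV 1 members. Summed platelet markers were at 232, 11.9 and 52.5 CPM in members and 140, 3.71 and 17.9 CPM in the others, higher in members in every library. In PLV 2 they rested on 2 UMIs in each kind of barcode.

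Wt1, which drives Cre in these mice, had 0 UMIs in members, which allows up to 6.81, 17.9 and 4.63 CPM. The reporter tdTomato was at 65.8, 59.7 and 102 CPM in members, 33.1, 59.3 and 118 CPM in the other blood endothelial barcodes and 59.0 CPM in the droplets of the mixed library with at most 50 UMIs. The log2 difference of members from the other blood endothelial barcodes was 0.32 (adjusted p = 0.527, edgeR quasi-likelihood test). In the mixed library the members thus lay above its near-empty droplets and below its other blood endothelial barcodes.

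Members were then compared with the 259, 74 and 161 other blood endothelial barcodes, which had at least 2 of the endothelial genes but no UMI of Ackr1, Selp, Prox1 or Mmrn1. UMIs were summed per library and kind of barcode, and sums were tested with edgeR's quasi-likelihood test with library as a block; differences are log2 with their standard error, and adjusted p-values are Benjamini-Hochberg values over all 7292 genes tested. In the members, 561 genes were higher (7.69% of those tested) and 558 were lower (7.65%) at an adjusted p below 0.05. Without the library block the test called 554 genes, 232 higher and 322 lower. Without PLV 1, 788 genes were called in all, and with Ackr1-positive members alone 1156 were, of which 1022 were also called with all members. Because the comparison group held mural RNA, the test was repeated with at least 4 of the 6 endothelial genes required of every blood endothelial barcode. Acta2, a smooth muscle actin, then fell in the comparison group from 2649, 2041 and 6071 CPM to 801, 11.9 and 635 CPM. Pericyte RNA changed less: the summed pericyte markers of the comparison group went from 2770, 1248 and 1759 CPM to 2663, 908 and 1734 CPM, against 922, 847 and 367 CPM in all members. Summed smooth muscle markers went to 2276, 372 and 2437 CPM, which in PLV 2 was below the members. In that setting 513 of 6639 genes were higher (7.73%) and 380 were lower (5.72%), 893 in all, and 513 were called in all without PLV 1. Calls in both settings numbered 697, or 62.3% of the first and 78.1% of the second set, and 695 of them had the same sign. Of the genes called lower, 262 of 558 were also called, in either direction, with at least 4 endothelial genes, against 435 of 561 of those called higher. The part of mural RNA in single genes was not tested further, and values from the stricter setting are given beside each group.

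**Figure D3:**
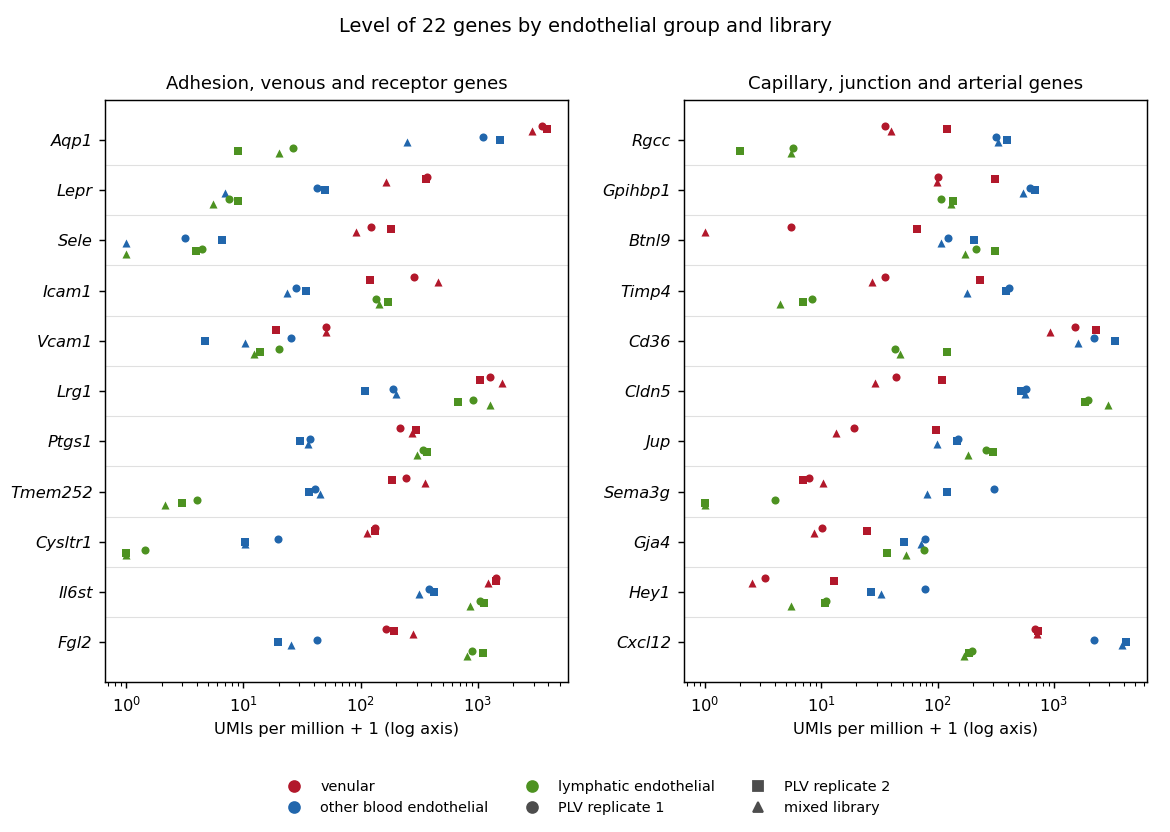
Level (CPM + 1, log axis) of 22 genes in members, other blood endothelial barcodes and lymphatic endothelial barcodes, with 1 point per library. The genes on the left, from Aqp1 to Fgl2, lie higher in members than in the other blood endothelial barcodes in all 3 libraries. Those on the right, from Rgcc to Cxcl12, lie lower.

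Leukocyte adhesion genes were led by the inducible ligands. Of 13 tested genes of an 18-gene list, 6 were higher and 2 lower, with a median log2 difference of 0.50 against -0.01 over all genes; with at least 4 endothelial genes 4 were higher and 2 lower, and the median was 0.12. With barcodes that held other types' markers left out, 3 of 11 were higher and 2 lower, with a median of -0.0065, so the list's median depended on the setting. Sele was at 123, 179 and 89.5 CPM in members, and at 2.16, 5.56 and 0 CPM in the other blood endothelial barcodes. Groups did not overlap, and the difference of 6.08 ± 0.42 (adjusted p = 2.1e-06) was the largest of the ranked genes; it was 6.50 with at least 4 endothelial genes. A Sele UMI was seen in 42.0%, 53.3% and 42.9% of members and in 0 of the 1023, 222 and 495 non-endothelial barcodes, which in PLV 1 allows a share of barcodes with a UMI of up to 0.293%. At 1500 UMIs per barcode it was seen in 14.3%, 21.4% and 20.0% of members.

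Icam1, the ligand of leukocyte beta2 integrins, was at 284, 119 and 455 CPM in members against 27.3, 33.4 and 22.6 CPM, a difference of 3.61 ± 0.33 (adjusted p = 1.53e-05). Near-empty droplets of the mixed library held Icam1 at 45.0 CPM (32.8 to 60.2), above its other blood endothelial barcodes and below its members. Vcam1, the ligand of VLA-4 integrin, was at 49.9, 17.9 and 49.4 CPM against 24.5, 3.71 and 9.28 CPM, a difference of 1.84 ± 0.36 (adjusted p = 0.00352). The lowest Vcam1 level of members, in PLV 2, lay under the PLV 1 level of the other barcodes, but within each library members were higher. The Vcam1 call was lost without the mixed library. Jam3, a junctional adhesion molecule, was lower in members at 27.2, 47.7 and 6.17 CPM against 107, 134 and 71.6 CPM, a difference of -2.10 ± 0.33 (adjusted p = 0.000698).

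Cd47, the ligand of SIRP-alpha, was higher by 0.93 ± 0.16 (adjusted p = 0.00119) and by 0.80 in the stricter setting. Cd34 and Pecam1, which all blood endothelium expresses, were higher by 0.79 and 0.72, and both calls were lost with at least 4 endothelial genes, where the differences were 0.39 and 0.36. The adhesion gene Mcam was lower by a difference of -0.89, which was -0.26 and not called in the stricter setting. Sele, Icam1, Vcam1 and Cd47 were the members of the list that stayed higher in the stricter setting.

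Chemokine and cytokine genes did not move as a group. Of 7 genes tested, 1 was higher and 1 lower; in the stricter setting 2 of 5 were higher, Cxcl1 and Csf1, and 1 lower. Cxcl12, which encodes a homeostatic chemokine that arterial and mural cells make, was at 690, 734 and 719 CPM in members and at 2194, 4125 and 3831 CPM in the others, a difference of -2.05 ± 0.17 (adjusted p = 9.16e-06). The levels did not overlap. Il6 was higher by 1.44 ± 0.36 (adjusted p = 0.015), a call that was lost without PLV 1 and in DESeq2; it was not tested in the stricter setting. Cxcl1 differed by 0.44 (adjusted p = 0.638); with at least 4 endothelial genes it was higher by 1.73 (adjusted p = 0.00132).

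Of 16 genes of venous endothelium tested, 11 were higher and none lower, with a median log2 difference of 1.46. In the stricter setting 14 of 16 were higher, and the median was 1.60. Lrg1, a secreted leucine-rich glycoprotein of venous endothelium, was at 1267, 1050 and 1614 CPM in members against 188, 107 and 201 CPM, a difference of 3.12 ± 0.16 (adjusted p = 1.43e-07). Ptgs1, the constitutive cyclooxygenase, was at 216, 298 and 275 CPM against 36.0, 29.7 and 34.5 CPM, a difference of 3.04 ± 0.20 (adjusted p = 1.34e-06). Tmem252 was at 245, 185 and 353 CPM against 39.6, 35.2 and 44.4 CPM (2.87 ± 0.19, adjusted p = 1.94e-06). For these genes the lowest library of members lay well above the highest library of the others.

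Cysltr1, a receptor for cysteinyl leukotrienes, was at 132, 131 and 113 CPM in members against 18.7, 9.27 and 9.28 CPM, a difference of 3.40 ± 0.26 (adjusted p = 4.39e-06). Plvap, the diaphragm protein of caveolae and fenestrae, was at 1800, 2148 and 2312 CPM against 656, 1010 and 864 CPM (1.46 ± 0.14, adjusted p = 1.86e-05). Il1r1, the interleukin-1 receptor, was at 159, 161 and 114 CPM against 58.3, 50.1 and 56.4 CPM (1.46 ± 0.20, adjusted p = 0.000323). Slco2a1, a prostaglandin transporter, and Nrp2, a co-receptor for VEGF and class 3 semaphorins, were higher by 1.48 ± 0.20 and 1.19 ± 0.16.

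The markers Aqp1 and Lepr were in the venous list. Aqp1 was at 1103, 1544 and 249 CPM in the other blood endothelial barcodes, so members were higher by 2.29 ± 0.31 (adjusted p = 0.000316). Lepr was at 41.0, 48.2 and 5.97 CPM in the others and members were higher by 3.57 ± 0.27 (adjusted p = 3.89e-06). Both genes had their lowest values in the mixed library, in members and in the others. Nr2f2, the COUP-TF transcription factor that specifies venous identity, stood at 393, 424 and 270 CPM in members and 416, 252 and 390 CPM in the others, a difference of 0.13 (adjusted p = 0.794). With at least 4 endothelial genes the Nr2f2 difference was 0.84 (adjusted p = 0.0109). Ephb4, the venous ephrin receptor, differed by 0.44 (adjusted p = 0.161).

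Receptors for inflammatory mediators and growth factors followed the same direction, with 8 of 15 tested genes higher and none lower and a median of 0.96; in the stricter setting 7 of 13 were higher. With barcodes that held other types' markers left out, Tnfrsf1a, Il6st and Lifr were higher, 3 of 10, and the median was 0.14. Il6st, the signalling subunit shared by interleukin-6 family receptors, was at 1435, 1432 and 1232 CPM in members and 382, 421 and 312 CPM in the others (2.02 ± 0.14, adjusted p = 2.1e-06). Lifr, the partner of Il6st for leukaemia inhibitory factor, was at 522, 674 and 381 CPM against 284, 304 and 142 CPM (1.28 ± 0.16, adjusted p = 0.000179). Neither pair of levels overlapped.

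Tnfrsf1a, the broadly expressed TNF receptor, was at 356, 376 and 318 CPM in members against 194, 191 and 167 CPM (1.06 ± 0.16, adjusted p = 0.000469). Hrh1, the histamine receptor through which venules open their junctions, was at 31.8, 35.8 and 17.0 CPM against 8.63, 9.27 and 1.33 CPM (2.40 ± 0.47, adjusted p = 0.00345). Il2rg, the common gamma chain, was at 31.8, 47.7 and 63.3 CPM against 12.2, 7.42 and 3.98 CPM (2.75 ± 0.45, adjusted p = 0.000956). Hrh1 was not tested in the stricter setting, where its counts were too low. Il4ra, Tek and Il13ra1 were higher by 1.33, 1.21 and 0.96, and the Il13ra1 call was lost in DESeq2.

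Haemostasis and granule genes were higher in 9 of 16 tested and lower in 1, with a median of 0.73. In the stricter setting 8 of 15 were higher. Summed platelet markers were also higher in members in every library, and their part in this list was not tested. Vwf itself was in the rule, and stood at 786, 692 and 1090 CPM in members and 224, 150 and 127 CPM in the others as a description. Edn1, the vasoconstrictor endothelin-1, was at 191, 274 and 222 CPM against 96.4, 83.4 and 34.5 CPM (1.91 ± 0.26, adjusted p = 0.000329). Fgl2, a membrane prothrombinase, was at 163, 191 and 278 CPM against 41.0, 18.5 and 24.5 CPM (3.0 ± 0.27, adjusted p = 1.55e-05). Both sets of levels were separate. Rab27a, which tethers Weibel-Palade bodies, the granules that hold Vwf and Selp, was higher by 1.96 ± 0.39 (adjusted p = 0.00397). Entpd1, which degrades extracellular ATP, was higher by 1.15 ± 0.18 (adjusted p = 0.00085). Procr, S100a10 and Mmrn2 were higher by 0.85, 1.01 and 0.95, while Cd63 was lower by a difference of -0.59, a call lost in the stricter setting and without each library in turn. The Procr and Cd63 calls were also lost in DESeq2.

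Capillary genes were mostly lower in members, in 10 of 17 tested, with 4 higher and a median log2 difference of -1.44; in the stricter setting 11 were lower and 2 higher. Rgcc was at 34.1, 119 and 38.6 CPM in members and 319, 395 and 331 CPM in the others (-2.59 ± 0.26, adjusted p = 3.44e-05). Gpihbp1, the capillary anchor of lipoprotein lipase, was at 99.9, 310 and 98.8 CPM against 621, 688 and 544 CPM (-1.97 ± 0.24, adjusted p = 0.000172). Btnl9 was at 4.54, 65.6 and 0 CPM against 121, 204 and 105 CPM (-3.39 ± 0.53, adjusted p = 0.000782). For each of the 3 genes the PLV 2 members were the highest of the members, and still below every library of the others.

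Lipoprotein lipase itself, Lpl, was lower by a difference of -1.54 ± 0.21 (adjusted p = 0.000278), and the glycerol channel Aqp7 by -2.35 ± 0.34 (adjusted p = 0.000422). Cd36 was at 1507, 2309 and 929 CPM in members against 2208, 3369 and 1597 CPM, a smaller difference of -0.49 (adjusted p = 0.0151) with overlapping levels. The Cd36 call was lost in DESeq2. The lipid chaperone Fabp5 ran the other way, at 717, 382 and 917 CPM against 217, 224 and 337 CPM (1.49 ± 0.19, adjusted p = 0.000205). The homeobox gene Meox1 was likewise higher, at 123, 143 and 130 CPM against 31.7, 33.4 and 21.2 CPM (2.37 ± 0.22, adjusted p = 1.93e-05). Fabp4 and Meox2 were higher by 0.52 and 0.59, and neither was called in the stricter setting.

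Arterial genes were lower in 8 of 14 tested and higher in none, with a median of -0.87; in the stricter setting 10 of 16 were lower. Sema3g, a semaphorin of arterial endothelium, was at 6.81, 5.97 and 9.26 CPM in members and 302, 119 and 80.9 CPM in the others (-4.13 ± 0.37, adjusted p = 1.36e-05). Hey1, a Notch target, was at 2.27, 11.9 and 1.54 CPM against 76.3, 26.0 and 31.8 CPM (-3.61 ± 0.57, adjusted p = 0.00081). Gja4, the gap junction protein connexin 37, was at 9.08, 23.9 and 7.72 CPM against 77.7, 50.1 and 71.0 CPM (-2.56 ± 0.38, adjusted p = 0.000554). All 3 were low in every library of members, without overlap. Efnb2, Dll4 and Sox17 were lower by differences of -1.60, -1.29 and -1.07, and the Dll4 call was lost in DESeq2.

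Of 12 junction genes tested, 1 was higher and 3 were lower, with a median of -0.25; in the stricter setting 4 were lower. Cldn5, the main claudin of endothelial tight junctions, was at 43.1, 107 and 27.8 CPM in members and 573, 519 and 566 CPM in the others (-3.40 ± 0.30, adjusted p = 1.24e-05). Jup, plakoglobin, was at 18.2, 95.5 and 12.3 CPM against 148, 145 and 98.1 CPM (-2.03 ± 0.37, adjusted p = 0.00223). Both were highest in PLV 2 among members and did not overlap the others. Robo4 was higher by 0.71 and Gjc1 lower by -1.01, and neither call held in the stricter setting.

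Immediate early and stress genes were higher in 7 of 23 tested and lower in 2, with a median of 0.29; in the stricter setting 16 were higher and 1 lower. Ier3 was at 702, 430 and 730 CPM in members against 259, 200 and 161 CPM (1.75 ± 0.20, adjusted p = 9.59e-05), and Nfkbia, the inhibitor of NF-kappaB, was at 822, 812 and 1383 CPM against 462, 458 and 440 CPM (1.25 ± 0.18, adjusted p = 0.000344). Jun was higher by 0.98 (adjusted p = 0.000589). Atf3 differed by 0.28 (adjusted p = 0.616) and by 2.40 with at least 4 endothelial genes (adjusted p = 3.22e-07). None of 11 antigen presentation genes tested passed the threshold.

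**Figure D4:**
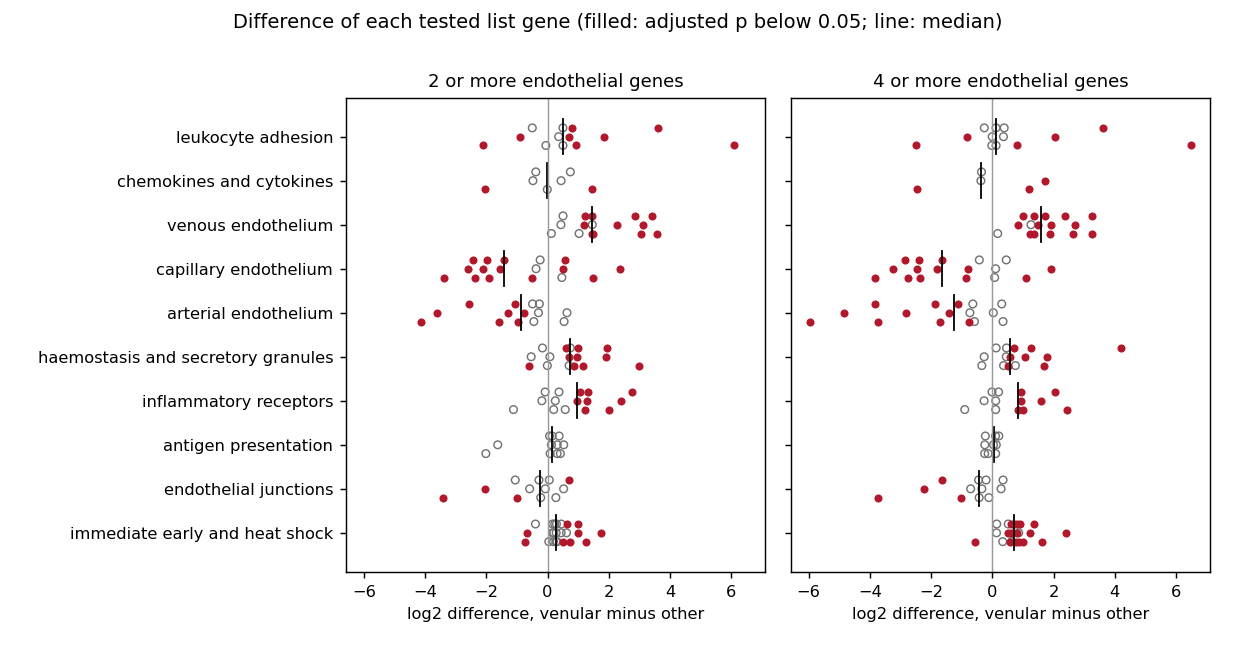
Log2 difference of members from other blood endothelial barcodes for each tested gene of 10 gene lists, on the left with at least 2 endothelial genes and on the right with at least 4; filled points have an adjusted p below 0.05 and lines are list medians. Tested venous genes lie to the right of 0, arterial genes and most capillary genes to the left, and antigen presentation genes have no filled point.

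Beyond the lists, Sele was followed among the higher genes by Hunk, a kinase, at 27.2, 41.8 and 27.8 CPM in members against 0.720, 1.85 and 0 CPM (5.47 ± 0.66, adjusted p = 0.00016). Nt5e, the ectoenzyme CD73 that makes adenosine from AMP, was at 291, 328 and 207 CPM against 5.04, 3.71 and 8.62 CPM (5.46 ± 0.29, adjusted p = 1.99e-07). Lbp, the lipopolysaccharide binding protein, was at 123, 107 and 218 CPM against 6.48, 0 and 13.3 CPM (4.42, adjusted p = 3.1e-06). Ret, a receptor tyrosine kinase, was at 116, 149 and 133 CPM against 14.4, 7.42 and 5.31 CPM (3.94 ± 0.31, adjusted p = 5.71e-06). In all 3 libraries these genes were at least at 27.2 CPM in members and at most at 14.4 CPM in the others. Celsr1, Ptk2b, Lpcat2 and Rasgef1a were higher by 5.42, 5.04, 4.33 and 4.02. Cadm3, higher by 4.94, overlaps Ackr1 by 493 bases on the same strand, so part of its reads may be shared with a gene that chose the members; where its reads lie was not tested. All 10 of the top higher genes were also called with at least 4 endothelial genes.

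The 10 genes with the largest lower values behaved differently: Cpxm2, Inhba, Cnn1, Actg2, Slc22a3, Hmcn2, Dtna, Fbxl22, Kcnk3 and Myom1 include contractile genes of muscle, and none was called with at least 4 endothelial genes. In the stricter setting the arterial gap junction gene Gja5 was lower by a difference of -5.96 (adjusted p = 4.48e-06), with 1, 0 and 0 UMIs in members against 189, 24 and 20 in the others; it was not tested in the first setting.

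Against the 167, 84 and 52 lymphatic endothelial barcodes, which had Prox1 or Mmrn1 and further lymphatic genes, 876 of 7884 genes were higher in members (11.1%) and 864 were lower (11%). Cd34 was at 490, 567 and 441 CPM in members and 5.63, 3.95 and 3.40 CPM in lymphatic barcodes (6.81 ± 0.24, adjusted p = 1.35e-13). Aqp1 was at 25.5, 7.90 and 19.3 CPM in lymphatic barcodes, so members were higher by 7.66 ± 0.24 (adjusted p = 1.81e-14), and Lepr was at 6.50, 7.90 and 4.53 CPM, so members were higher by 5.69 ± 0.23 (adjusted p = 7.99e-13). Aqp1, Lepr and Cd34 thus separated members from lymphatic endothelium in every library.

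Of 13 adhesion genes tested against lymphatic barcodes, 7 were higher in members and 1 lower. Sele was higher by 5.71 ± 0.36 (adjusted p = 3.16e-10). Jam2 was at 388, 370 and 472 CPM against 5.20, 0 and 4.53 CPM (6.82 ± 0.30, adjusted p = 2.04e-12). Icam1 differed less, at 135, 172 and 144 CPM in lymphatic barcodes (1.02 ± 0.25, adjusted p = 0.00472), and its PLV 2 level in members, 119 CPM, lay below the lymphatic level of that library; the call was lost in DESeq2.

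Of 8 chemokine and cytokine genes tested against lymphatic barcodes, 5 were higher in members, Cxcl1, Cxcl12, Cx3cl1, Il6 and Csf1, and the 2 lower were the scavenging receptors Ackr3 and Ackr4. Cxcl12 was at 198, 184 and 167 CPM in lymphatic barcodes and higher in members (2.06 ± 0.16, adjusted p = 3.58e-09), between lymphatic and other blood endothelial levels in all 3 libraries. The scavenger receptor Ackr3 was lower in members by a difference of -3.04 ± 0.21 (adjusted p = 1.48e-09). Ackr4, which scavenges the chemokines of lymphatic endothelium, had 0 UMIs in members and was at least 66.1-fold lower.

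Venous genes were less uniform here: 10 of 18 were higher and 2 lower. Il1r1 was higher by 5.02 ± 0.32 and Tmem252 by 6.78 ± 0.28, while Lrg1, at 902, 681 and 1275 CPM in lymphatic barcodes, was higher by 0.58 (adjusted p = 0.00145). Flrt2 was lower by a difference of -3.18 ± 0.28. Haemostasis genes turned, with 4 of 17 higher and 10 lower in members: Fgl2, at 891, 1106 and 805 CPM in lymphatic barcodes, was lower by a difference of -2.03 ± 0.18, Thbd, thrombomodulin, by -1.07 ± 0.19 and F8, coagulation factor VIII, by -2.39 ± 0.32. Fgl2 in members thus lay between the other blood endothelial and the lymphatic level.

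Antigen presentation genes were higher in members than in lymphatic barcodes in 7 of 8 tested. The class I gene H2-K1 was at 1190, 931 and 753 CPM against 620, 524 and 257 CPM (1.20 ± 0.15, adjusted p = 4.47e-06), and its light chain B2m was at 1135, 1366 and 590 CPM against 544, 490 and 164 CPM (1.54 ± 0.16, adjusted p = 2.11e-07). Members were higher within each library, and both groups were lowest in the mixed library.

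Cldn5 was lower than in lymphatic barcodes too, where it stood at 1977, 1847 and 2913 CPM (-5.45 ± 0.30, adjusted p = 3.42e-11). Members therefore had the lowest Cldn5 level of the 3 kinds of endothelium in every library. Immediate early genes were lower in members in 13 of 23 and higher in 3, with Egr1 lower by a difference of -1.45 ± 0.15 and Ier3 higher by 1.22 ± 0.19. Aplnr, the apelin receptor of venous endothelium, was at 381, 292 and 185 CPM in members and at 0 UMIs in lymphatic barcodes, at least 376-fold higher. Tacr1, the substance P receptor, was at 136, 137 and 72.5 CPM and at least 145-fold higher. Among genes with 0 UMIs in members, Dtx1 was at least 133-fold and Duox2 at least 121-fold lower. These bounds use a floor of 3 UMIs over the group.

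PLV and mixed members were compared with 2 libraries against 1, so the lone mixed library was assumed to vary like the PLV libraries. In the mixed members 82 of 6883 genes were higher (1.19%) and 58 were lower (0.843%); with at least 4 endothelial genes, 63 of 6747 were higher (0.934%) and 49 lower (0.726%). With Ackr1-positive members alone, edgeR called 0 of 5385 genes, 336 had an unadjusted p below 0.05, and DESeq2 on all members called 8. The calls were thus made on a member set that included the 14 Selp-alone barcodes described above.

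Ctsh was at 18.2, 11.9 and 91.1 CPM (2.59 ± 0.51, adjusted p = 7.3e-05), and it was not tested among Ackr1-positive members, where its counts were too low; the call was lost in DESeq2. Bgn was at 175, 107 and 461 CPM (1.78 ± 0.35, adjusted p = 6.63e-05), and -0.041 (adjusted p = 0.983) with Ackr1-positive members. The Bgn difference was therefore gone without the Selp-alone members. Ahnak2, Pkhd1l1, Olr1 and Cyp1b1 had 0 UMIs in the 84 PLV members and 25, 24, 24 and 22 UMIs in the mixed members. The UMIs of Pkhd1l1 were in 11 barcodes, all of them Selp-alone members. The last of the 5 top higher genes, Spp1, had 105 UMIs in 1 barcode.

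Of 23 immediate early and heat shock genes, Hspa1a, Hspa1b and Dnajb1 were higher in the mixed members and none was lower; DESeq2 kept Hspa1b alone. Hspa1a was at 88.5, 17.9 and 340 CPM in members (2.53 ± 0.35, adjusted p = 1.35e-10), at 152, 59.3 and 582 CPM in the other blood endothelial barcodes and at 34.6, 33.6 and 333 CPM in lymphatic barcodes, so its highest level was in the mixed library in each kind. With Ackr1-positive members alone its difference was 2.53 as well (adjusted p = 0.623). Icam1 was higher in mixed members by 1.22 ± 0.35 (adjusted p = 0.0287), and by 1.04 (adjusted p = 0.634) with Ackr1-positive members. The digestions lasted 30 and 60 min, and digestion, vessels, mice, Cell Ranger version and library cannot be told apart.

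Lower in the mixed members were the capillary genes Aqp7 (-3.54 ± 0.96, adjusted p = 0.0168) and Timp4 (-1.87 ± 0.46, adjusted p = 0.00588), the replication protein gene Rpa3, at 43.1, 41.8 and 3.09 CPM, and the platelet chemokine Pf4, at 150, 11.9 and 6.17 CPM. Timp4 rested on PLV 2, where 76.9% of its 39 UMIs were in 1 barcode; it was at 34.1, 233 and 26.2 CPM. The PLV libraries differed among themselves for Pf4, and at least 2 platelet markers were found in 10 of 69 PLV 1 members and Pf4 itself in 17. Gm34455 was at 114, 5.97 and 1.54 CPM, with 60.0% of its PLV 1 UMIs in 1 barcode. The venular markers did not pass: Lepr differed by -1.02 (adjusted p = 0.162), Aqp1 by -0.22 (adjusted p = 0.87) and Sele by -0.54 (adjusted p = 0.593). Those p-values leave a lower Lepr level in the mixed library unresolved.

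Whether the difference between members and other blood endothelial barcodes was itself unlike in the mixed library was tested with an interaction term; the mixed difference came from 1 library, which was assumed to vary like the PLV libraries. Of 8987 genes, 66 had a positive term (0.734%), a log2 difference of members from the others that was more positive in the mixed library than in PLV, and 38 a negative one (0.423%). Aqp1 was the clearest of the markers: its difference between members and others was larger in the mixed library by 2.02 (adjusted p = 6.6e-10) and by 1.73 with at least 4 endothelial genes. Members were at 2885 CPM in the mixed library against 3508 and 3903 CPM in PLV, while the others were at 249 CPM against 1103 and 1544 CPM. DESeq2 called 3 genes in this test.

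**Figure D5:**
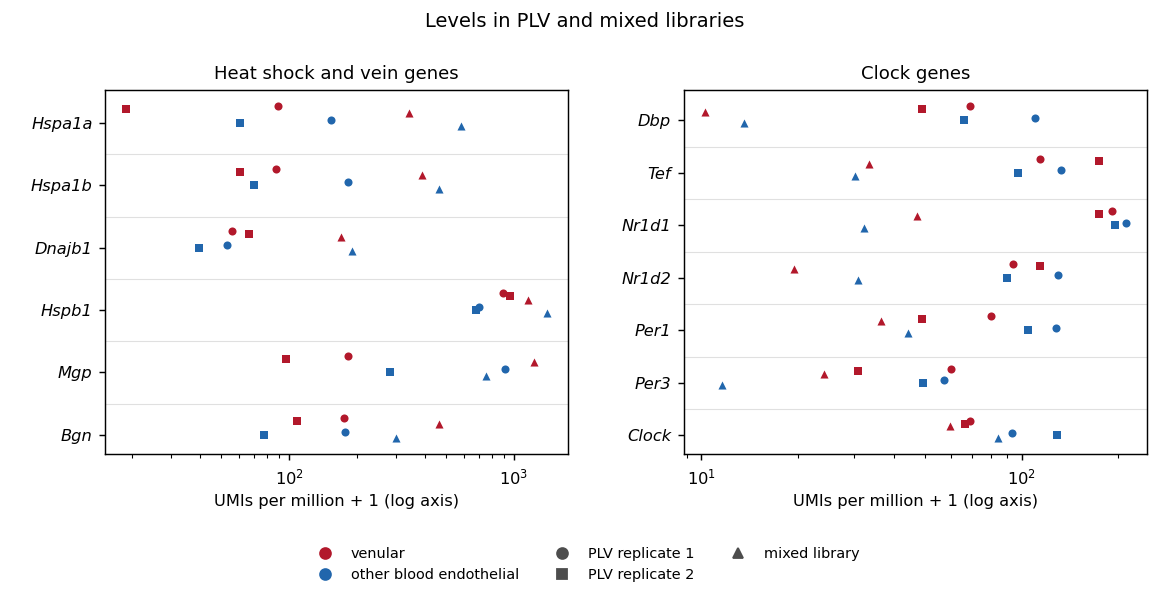
Level (CPM + 1, log axis) of heat shock genes, of Mgp and Bgn, and of clock genes in members and in the other blood endothelial barcodes, 1 point per library. Hspa1a and Hspa1b are highest and Dbp, Tef and Nr1d1 are low in the mixed library in both kinds of barcode.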

How the data were processed

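The deposited files hold raw counts, UMIs per gene and barcode, with Cell Ranger named in the file headers (6.1.2 for PLV, 4 for the mixed library); Cell Ranger, Seurat and GRCm38 are named in the submitters' processing notes. Hashtag counts deposited for the mixed library did not separate the vessels and were used only to describe members. UMIs were summed per library and kind of barcode and tested with edgeR 4.0.16 (TMM, filterByExpr, quasi-likelihood test, R 4.3.3), with library as a block because both kinds of barcode came from the same suspension; DESeq2 1.42.0 was an alternative. Doublets were scored with scrublet (scanpy 1.11.5). The 10 genes of the rule were not tested. Genes to name were list genes past an adjusted p of 0.05 and the 10 (first comparison) or 5 largest differences each way. The largest differences were taken among genes with at least 20 UMIs in the higher group and 1 sign over libraries. The text does not name every gene that met this rule. Other genes named were chosen after their values were seen. Members and lists were chosen with earlier results of these data known. The settings with at least 4 endothelial genes and with Ackr1-positive members were chosen after seeing the data. On simulated counts with 4-fold changes, 95.0%, 92.0%, 60.0% and 45.5% of 200 changed genes were recovered in the 4 tests, in the order reported. Of the genes called there, 5%, 4.17%, 6.25% and 3.19% were unchanged genes. The simulation gave every gene the same dispersion and the mixed library the same spread as PLV. It therefore cannot show how the tests fare where these differ. Some genes are not reported here.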

Additional observations from a re-analysis of the deposited data

Results flagged for a closer look

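For 23 genes the log2 difference between members and other blood endothelial barcodes was unlike in the mixed and PLV libraries by the interaction test of edgeR; values are the difference in the mixed library minus that in PLV. The mixed difference came from 1 library with no replicate and was assumed to vary like PLV. DESeq2 called 3 genes in all, and 7 of the 23 were also called with at least 4 endothelial genes. Aqp1 was larger in the mixed library by 2.02 (adjusted p = 6.6e-10). Among chemokine genes, Cxcl1 had -2.29 (adjusted p = 4.31e-05) but 0.56 with at least 4 endothelial genes, Ccl2 had -7.08 (0.000309) and Ackr3 had 2.36 (0.000486). Among venous, capillary and arterial genes, Ctsh had 3.01 (0.00309), Btnl9 -6.85 (0.0195) and Bmx 2.76 (0.0375). Among haemostasis genes, Angpt2 had -2.41 (0.000531), Edn1 1.40 (0.033), Nos3 1.67 (0.00618) and Mmrn2 1.20 (0.0228). The class II genes H2-Aa, H2-Ab1 and H2-Eb1 had -4.79 (0.00775), -8.98 (8.99e-05) and -8.83 (0.000838); H2-Aa became 1.01 with predicted doublets left out. The junction genes Cgnl1 and Tie1 had 3.06 (0.0259) and 1.25 (0.0419), and Atf3 had -1.39 (0.00775) but 0.56 with at least 4 endothelial genes.

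The 5 largest values each way that met the naming rule added Cntf at 9.04 (1.5e-10), Spp1 at 7.53 (6.6e-10), Pdlim3 at 6.77 (0.0164), Serpinf1 at 6.47 (0.045), Mt3 at 5.88 (1.31e-05) and Dgkb at -7.04 (0.0231). The Cntf UMIs of mixed members, 64, were in 1 barcode, as were the 105 of Spp1. Btnl9, H2-Ab1, H2-Eb1 and Dgkb had 0 UMIs in the mixed members, and Pdlim3 and Serpinf1 had 0 in the PLV members, so their fitted values depend on the prior count and are no measure of size. Summed macrophage markers were at 65.5, 11.1 and 98.8 CPM in other blood endothelial barcodes (PLV 1, PLV 2, mixed). In members they were at 18.2, 0 and 18.5 CPM. The part of macrophage RNA in the class II values was not tested.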

How the results depend on the processing

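Counts of called genes moved with several settings. Against other blood endothelial barcodes, DESeq2 called 635, leaving out barcodes with other cell types' markers 618 (3757 genes tested), no replicate block 554 and thinning 203 (1162 tested); leaving out a library gave 788 to 1416. With library sizes alone 403 were higher and 705 lower, and without a filter 667 and 962. With at least 4 endothelial genes, DESeq2 called 371, no replicate block 351, and leaving out a library gave 513 (without PLV 1) to 1064. Against lymphatic barcodes the counts were 1069, 1127 and 347 for DESeq2, other types left out and thinning, and 1297 to 1612 without a library; library sizes alone gave 736 higher and 979 lower. The block moved no other count by over 1.5 times; without it the lymphatic comparison called 1263. The block is the library, since both kinds of barcode share a suspension.

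For PLV against mixed members, DESeq2 called 8, other types left out 52, thinning 7 (950 tested) and Ackr1-positive members 0; library sizes alone gave 67 higher and 91 lower. For the interaction, DESeq2 called 3, at least 4 endothelial genes 41, other types left out 4, thinning 0 (58 at an unadjusted p below 0.05) and Ackr1-positive members 44. The share of members in PLV became 2.69% with at least 2 UMIs of Ackr1 and Selp, 1.59% with other types left out (2.41% in the mixed library) and 2.33% with Ackr1-positive members (4.21%); thinning gave 3.51% in the mixed library.

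Values that changed sign were few, and the cause was not tested. Against other blood endothelial barcodes, thinning gave Fabp4 -0.031 and Meox2 -0.18, and Hspa1a was 0.63 with at least 4 endothelial genes and 1.36 with other types left out; Meox1 was 0.14 against lymphatic barcodes after thinning. Between PLV and mixed members, Bgn was -0.041 with Ackr1-positive members. In the interaction, Cxcl1 was 0.56 (at least 4 endothelial genes), 3.54 (other types left out) and 1.42 (thinned), Ackr3 -2.04 (thinned), Ctsh -0.036 (Ackr1-positive), H2-Aa 1.01 (doublets left out), Cgnl1 -0.38 (other types left out), and Atf3 0.56 (at least 4 endothelial genes) and 1.46 (other types left out). Over all named genes and alternatives, 1190 values kept direction and call against other blood endothelial barcodes, 128 lost the call and 4 changed sign; the same counts were 186, 40 and 1 for PLV against mixed members (20 of the first without PLV 1 and 20 without PLV 2 had no test and count direction alone) and 159, 79 and 9 for the interaction. Genes not tested under an alternative are not counted. Depth limits PLV 2, with 15 members.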

Other observations

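Dbp, Nr1d1 and Tef, genes of the circadian clock that were chosen after their values were seen, were low in the mixed library in members and in other barcodes alike. Dbp, a clock output factor, was at 68.1, 47.7 and 9.26 CPM in members (PLV 1, PLV 2, mixed), at 109, 64.9 and 12.6 CPM in other blood endothelial barcodes and at 99.1, 30.9 and 7.75 CPM in non-endothelial barcodes. Nr1d1, the repressor REV-ERB alpha, was at 191, 173 and 46.3 CPM in members and 210, 195 and 31.2 CPM in other blood endothelial barcodes. Tef was at 114, 173 and 32.4 CPM in members. Clock itself was at 68.1, 65.6 and 58.7 CPM. The time of dissection is not among the labels used here.

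The hashtags of the mixed library did not set members apart: the first tag made up a median of 79.8% of tag UMIs in the 53 members with at least 100 tag UMIs and 79.7% over all kept barcodes.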
